A study of Mus musculus with 23 samples.

Results

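The immunity-related GTPases (IRG) are a family of interferon-inducible, dynamin-like GTP-binding proteins, and their transcripts were followed here in the hearts of mice given isoproterenol (ISO) or lipopolysaccharide (LPS). The family was defined as 10 listed genes (Iigp1, Irgm1, Irgm2, Igtp, Ifi47, Tgtp1, Tgtp2, Gm4841, Gm12250 and Gm4951), each found by matching its symbol to the Ensembl identifiers of the files through GENCODE M21, and all 10 were present among 55487 identifiers. Poly-A RNA of whole hearts was sequenced in 23 libraries from 10-week-old female wild-type mice of the inbred strain C57BL/6J. The ISO arm held hearts taken on day 1 (3 libraries) and day 7 (4 libraries) after 300 mg/kg of isoproterenol, a beta-adrenergic agonist, and 4 untreated ISO baseline hearts. The LPS arm held hearts taken on day 1 and day 7 after 2.5 mg/kg of lipopolysaccharide, a bacterial outer membrane component sensed by Toll-like receptor 4, and untreated LPS baseline hearts, with 4 libraries in each group. All groups shared strain, sex, genotype and age, and no vehicle-treated group is among the libraries, so handling and injection cannot be told apart from the agent.

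IRG proteins defend mouse cells against intracellular bacteria and protozoa that live in vacuoles. The regulatory members Irgm1, Irgm2 and Igtp (also called Irgm3) sit on the cell's own membranes and keep the others inactive there, while effector members such as Iigp1 (Irga6), Tgtp1 and Tgtp2 (both Irgb6), Ifi47 (Irgd) and Gm12250 (Irgb10) load onto pathogen vacuoles or bacterial membranes and help to break them open. Their genes are classical targets of interferon signalling, which acts on their promoters through short DNA elements named GAS and ISRE.

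Promoter sequences are shown because interferon response in this family is known to act through these elements. A RefSeq window (GRCm38.p6) reaching from 250 bases before the gene start to 50 bases after it was found for 7 members, and it was searched on both strands for GAS letters (TTCNNNGAA) and for ISRE core letters (GAAANNGAA). The stretches around the matches are given 5′ to 3′ along the gene, with matched letters in capitals. The first 4 lie at chr11:58199499-58199542 (+ strand), chr11:58214890-58214933 (+), chr11:48992303-48992346 (-) and chr11:49064262-49064305 (-), the Gm12250 stretch at chr11:58183741-58183818 (+) and the Irgm1 stretch at chr11:48871424-48871462 (-).
Igtp: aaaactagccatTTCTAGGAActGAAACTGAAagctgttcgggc
Irgm2: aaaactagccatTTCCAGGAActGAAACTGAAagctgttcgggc
Tgtp1: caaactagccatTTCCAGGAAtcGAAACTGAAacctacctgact
Tgtp2: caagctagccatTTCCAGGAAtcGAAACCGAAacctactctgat
Gm12250: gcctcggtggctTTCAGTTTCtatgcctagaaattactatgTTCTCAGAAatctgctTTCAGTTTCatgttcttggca
Irgm1: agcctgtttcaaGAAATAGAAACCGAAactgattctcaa

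In Igtp, Irgm2, Tgtp1 and Tgtp2 the GAS letters stood 2 bases before the ISRE letters on the same strand, starting 45, 75, 88 and 81 bases before the RefSeq gene start in that order. Gm12250 held 1 GAS match between 2 ISRE matches that read on the other strand, Irgm1 held 2 overlapping ISRE matches and no GAS match, and Ifi47 held neither. GAS letters occurred in 5 of the 7 member windows and in 8.3% of all 32851 windows, and ISRE letters in 6 of 7 and in 8.56%. Both occurred together in 5 of 7 member windows against 1.07% of all windows. The arrangement of GAS letters, 2 bases and ISRE letters, noted after the matches were seen, was found in 8 of the 32851 windows (0.0244%). These were the windows of the 4 members, the IRG-type gene Gm12185, Adar, Olfr382 and LOC115488470. In GENCODE M21 Gm12185 starts at 48992226 on the minus strand, inside the Tgtp1 window, so both matches may be the same stretch. The 4 members are pairs of close paralogues. The Igtp and Irgm2 windows were identical at 68.1% of 270 aligned bases and the Tgtp1 and Tgtp2 windows at 51.7% of 292. A match of letters is a description and not a measured binding site.

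**Figure D1:**
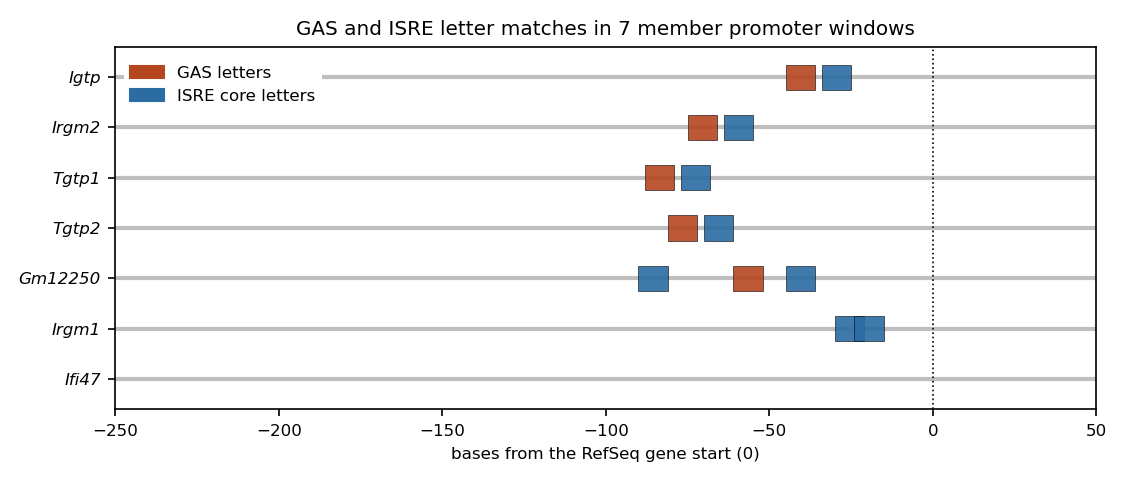
Positions of GAS letters (red) and ISRE core letters (blue) in the promoter windows of 7 members, in bases from the first base of the RefSeq gene start (0, dotted line). Igtp, Irgm2, Tgtp1 and Tgtp2 carry a GAS match 2 bases before an ISRE match, Gm12250 and Irgm1 carry other arrangements, and the Ifi47 window has no match.

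The 10 genes lie on 2 chromosomes of the mouse genome (GRCm38, GENCODE M21), in 3 separate stretches, of which 2 are on chromosome 11. On chromosome 11, Irgm1 (48861968 to 48871683), Tgtp1 (48985327 to 48994172) and Tgtp2 (49057194 to 49064206) lie on the minus strand. Ifi47 (49076587 to 49096974), Gm12250 (58187739 to 58189012), Igtp (58199556 to 58207591) and Irgm2 (58199618 to 58222782) lie on the plus strand of the same chromosome. On chromosome 18, Gm4951 (60212080 to 60247820) and Iigp1 (60376027 to 60392634) lie on the plus strand and Gm4841 (60268305 to 60273272) on the minus strand. All but 1 of the 10 are annotated as protein coding, and Gm12250 is annotated in GENCODE M21 as a processed pseudogene whose span lies beyond the RefSeq promoter window above.

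Reads of close paralogues cannot be assigned with certainty. Of the 31-base words in Tgtp2 and Tgtp1 transcripts, 90.5% and 84.4% also occurred in another gene, mostly in each other, and the deposited counts of both genes were not whole numbers in 23 of 23 libraries. Igtp shared 15.9% of its words, and every shared word occurred in Irgm2, which it overlaps on the same strand. Both had counts that were not whole in 19 of 23 libraries. Gm4841 shared 20.4%, of which 12.3% of all its words were shared with BC023105. Gm4951 shared 14%, of which 10.4% of all its words were shared with Iigp1, and the counts of both these members were whole in every library. Irgm2, Iigp1, Ifi47 and Irgm1 shared between 2.88% and 10.7%, and Gm12250 shared none. Ifi47 also overlaps Olfr56 on the same strand, and Tgtp1 overlaps Gm12185. Olfr56, an olfactory receptor gene, averaged 3.24 ± 1.09 TPM at LPS day 1 and 0.0532 ± 0.0311 TPM at LPS baseline (SD, n = 4 each), so the values of Ifi47 and of these overlapping genes are uncertain in how reads were divided.

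Depth was 20910394 to 30368985 estimated reads assigned to genes per library. None of 5 cardiomyocyte markers was at 0 in any group. On day 1 of each arm 4 of the 5 were lower, beside 33.0% of all tested genes after LPS and 32.8% after ISO. The exceptions were Tnnt2 after LPS and Actc1 after ISO. The summed TPM of the 5 markers was 19300 to 22300 at LPS day 1 against 31000 to 31400 at LPS baseline. At ISO day 1 it was 22900 to 27700, against 30500 to 31600 at ISO baseline. Whether this bears on the IRG values was not tested. LPS day 1 libraries formed 2 pairs, in which replicates 1 and 2 differed less (14.07, as chi-square divided by its degrees of freedom) than libraries of different pairs (32.23 to 48.7), as did replicates 3 and 4 (11.09). ISO day 7 replicate 3 stood apart from the other 3 libraries of its group (24.63 to 48.64, against 6.89 to 18.13 among those). Some of the results that rest on these libraries, but not all, are also given without them below or in the closing section. Reads from whole hearts cannot tell more expressing cells from more RNA per cell. Replicates are read here as separate mice, in which case the p-values cover animal and library variation jointly.

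Before any treatment the family was expressed at a low level. TPM, a length-scaled abundance that allows genes to be compared, summed over the 10 members to 46.2 ± 6.37 at LPS baseline and 43.55 ± 5.12 at ISO baseline (SD, n = 4 each), which was 0.00947% and 0.00905% of reads. The order of mean TPM was the same in both baselines down the whole family: Iigp1, Irgm1, Igtp, Irgm2, Tgtp2, Tgtp1, Ifi47, Gm12250, Gm4841 and Gm4951. Iigp1 stood at 11.59 ± 1.68 TPM at LPS baseline and 13.77 ± 1.6 TPM at ISO baseline, while Gm4951 stood at 0.284 ± 0.0948 and 0.2532 ± 0.0165 TPM (SD, n = 4 each). In both baselines the library values of Igtp overlapped those of Irgm1 and of Irgm2, those of Irgm1 lay above those of Irgm2, and Tgtp2 overlapped Tgtp1, as Gm12250 did Gm4841. None of the 10 members differed between the baselines of the arms by edgeR's quasi-likelihood test with an adjusted p under 0.05, where 1.21% of 15732 tested genes did. Only 1 member, Tgtp2, had an unadjusted p under 0.05, where 10.8% of all tested genes did.

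**Figure D2:**
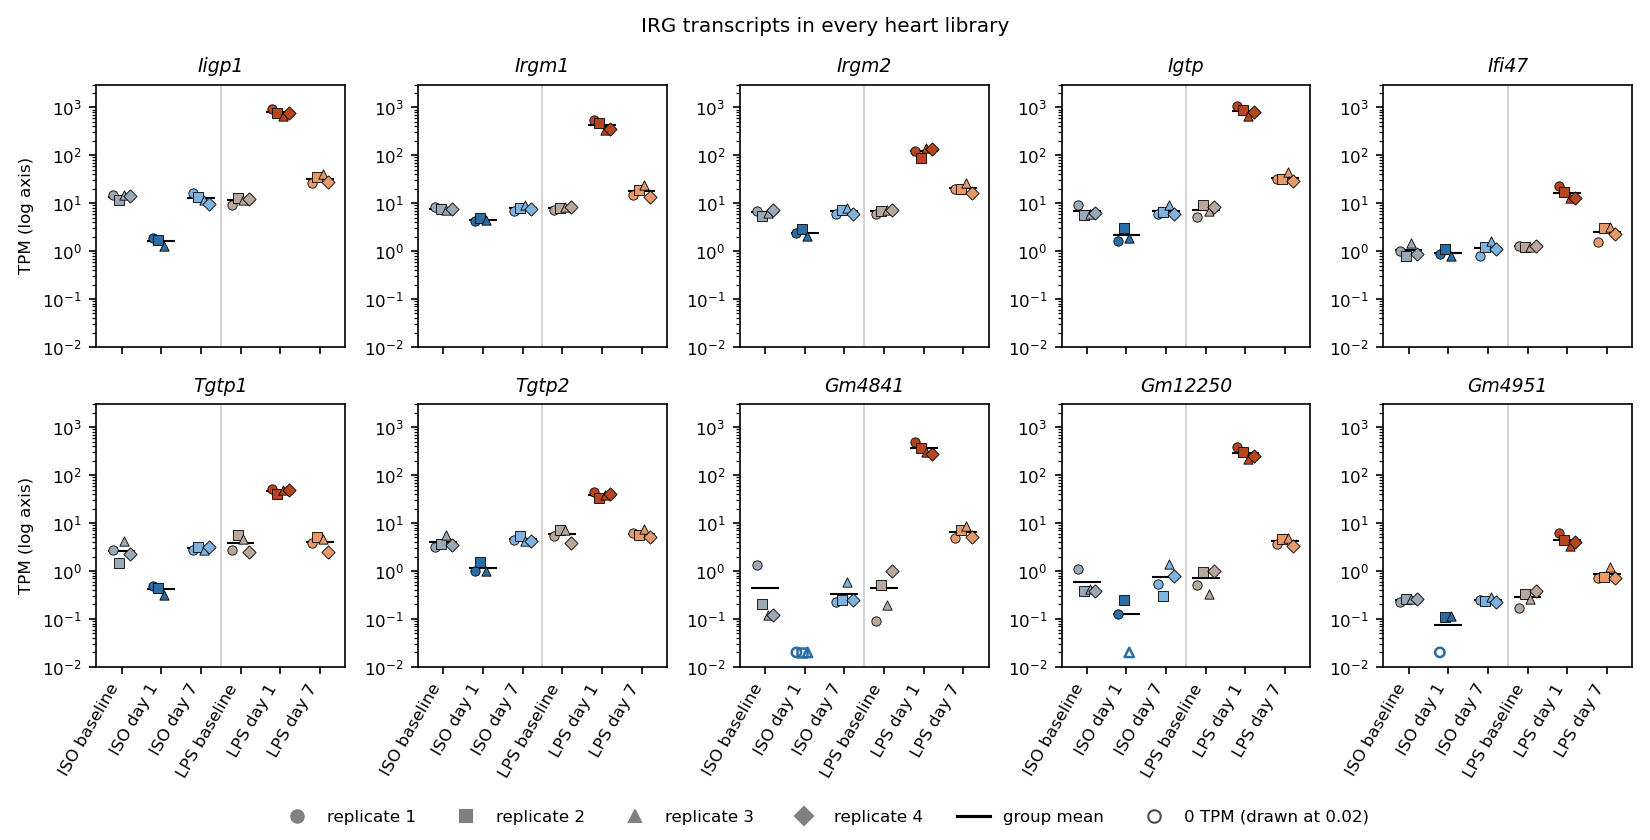
TPM of each member in every library (log axis), by group, with replicates as symbols and the group mean as a line, and libraries with 0 TPM drawn as open symbols at 0.02. All members stand highest in the 4 LPS day 1 libraries, and all but Ifi47 lie below their ISO baseline libraries at ISO day 1. The share of all tested genes separated in these ways was not counted.

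On day 1 after LPS, every member rose. All 10 passed the test as higher than at LPS baseline, where 33.2% of all tested genes did. In all 10 the lowest LPS day 1 library lay above the highest baseline library. The share of all tested genes separated in this way was not counted, here or in the comparisons of library ranges below. The median log2 change was 5.00, with a range of 2.71 to 9.71, while the median over all tested genes was 0. The summed TPM reached 2958 ± 526 at LPS day 1 against 46.2 ± 6.37 at LPS baseline (SD, n = 4 each), a ratio of 64, and the share of reads was 0.553% against 0.00947%. With libraries 1 and 2 left out, or libraries 3 and 4 left out, all 10 members still passed.

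Among the regulatory members, Igtp rose most. Igtp measured 1080, 897, 655 and 805 TPM at LPS day 1, against 5.08, 9.08, 7.02 and 8.24 TPM at LPS baseline, so that the groups lay far apart. Its log2 change was 6.93 (SE 0.25, edgeR adjusted p = 3.64e-16), and at LPS day 1 it ranked 94 among all 55487 identifiers by mean TPM, against rank 6273 at baseline. Irgm1, which in mice also guards against mycobacteria and limits autoinflammation, measured 553, 480, 338 and 362 TPM at LPS day 1, against 7.22, 8.07, 8.3 and 8.18 TPM at LPS baseline. The day 1 values of Irgm1 split between the library pairs named above, while its baseline values were close together. Its log2 change was 5.82 (SE 0.19, edgeR adjusted p = 8e-17), and it was 5.38 without libraries 1 and 2 and 6.16 without libraries 3 and 4.

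Irgm2, the third regulatory member, rose less than Igtp although they started at almost the same level. Irgm2 measured 121, 86.5, 143 and 137 TPM at LPS day 1, against 6, 6.78, 7.16 and 7.18 TPM at LPS baseline, a log2 change of 4.19 (SE 0.12, edgeR adjusted p = 1.13e-17). Its day 1 values were higher in libraries 3 and 4 than in libraries 1 and 2, the reverse of Igtp and Irgm1. The ratio of Igtp to Irgm2 TPM was 8.93, 10.4, 4.57 and 5.87 at LPS day 1, against 0.847, 1.34, 0.98 and 1.15 at LPS baseline, with no overlap between the groups. Since the deposited counts of both genes were partly split between them, the size of this ratio depends on that division.

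Among the effector members, Iigp1 and Gm12250 rose most. Iigp1, whose protein coats the vacuole of Toxoplasma in mouse cells, measured 918, 777, 674 and 773 TPM at LPS day 1, against 9.17, 13, 11.9 and 12.3 TPM at LPS baseline. Its log2 change was 6.13 (SE 0.20, edgeR adjusted p = 8e-17). Gm12250, which encodes Irgb10, an effector that acts with guanylate-binding proteins on bacterial membranes, measured 379, 310, 220 and 252 TPM at LPS day 1, against 0.521, 0.97, 0.328 and 1.01 TPM at LPS baseline. It was thus among the scarce members before treatment and the fifth in mean TPM at day 1, with a log2 change of 8.73 (SE 0.32, edgeR adjusted p = 3.64e-16).

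The remaining effectors changed less. Tgtp1 measured 51.4, 40.1, 49.7 and 48.4 TPM at LPS day 1, against 2.8, 5.52, 4.71 and 2.53 TPM at LPS baseline, and its neighbour Tgtp2 measured 44.3, 33.1, 38.4 and 39.6 TPM at LPS day 1, against 5.33, 7.28, 7.33 and 3.89 TPM at LPS baseline. Their log2 changes were 3.66 (SE 0.24) and 2.71 (SE 0.20), both with an edgeR adjusted p of at most 8.01e-11, and the reads of both genes summed gave 3.11 (SE 0.18). Ifi47 measured 23.1, 17.1, 12.7 and 13.1 TPM at LPS day 1, against 1.26, 1.2, 1.24 and 1.31 TPM at LPS baseline, and its log2 change was 3.71 (SE 0.24, edgeR adjusted p = 6.89e-12). In all 3 genes the groups lay apart, and Ifi47 and Tgtp1 had fitted changes that differed by less than their standard errors.

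Gm4841 and Gm4951 are members whose function is less well described. Gm4841 measured 490, 373, 305 and 276 TPM at LPS day 1, against 0.09, 0.515, 0.194 and 1.01 TPM at LPS baseline. The baseline libraries differed among themselves by over 10-fold, and every day 1 library lay far above them. Its log2 change of 9.71 (SE 0.52, edgeR adjusted p = 1.15e-12) was the largest in the family, and it moved between 9.27 and 10.06 when either pair of day 1 libraries was left out. Gm4951 measured 6.26, 4.51, 3.26 and 4 TPM at LPS day 1, against 0.167, 0.325, 0.256 and 0.388 TPM at LPS baseline, with a log2 change of 4.04 (SE 0.28, edgeR adjusted p = 2.08e-11), and it was the scarcest member in both groups. Over the LPS day 1 group it held 970 reads, while Iigp1, which shares words with it, held 172275. Whether shared words bear on the Gm4951 values was not tested.

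**Figure D3:**
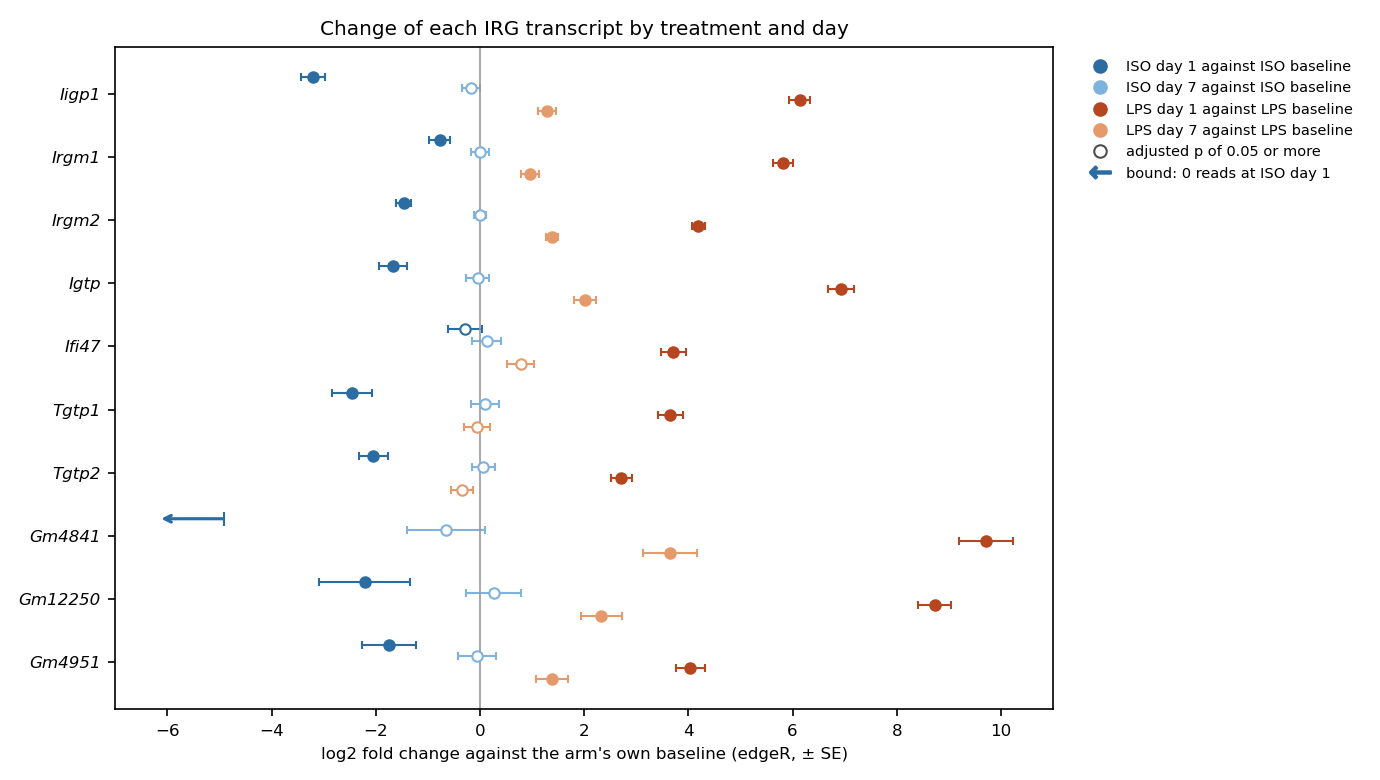
Log2 fold change of each member against its own arm's baseline (points, edgeR, with standard errors as bars) for ISO day 1, ISO day 7, LPS day 1 and LPS day 7. Filled points have an adjusted p under 0.05 and open points do not, and the arrow marks the bound for Gm4841, which had 0 reads at ISO day 1. LPS day 1 changes run from 2.71 to 9.71, and no ISO day 7 change passed.

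The make-up of the family's transcript pool shifted with LPS. Igtp took 28.9% of the summed TPM at LPS day 1 against 15.8% at LPS baseline, Gm4841 took 12.1% against 0.952%, and Gm12250 took 9.74% against 1.52%. Irgm2 took 4.28% against 14.8%, Tgtp2 took 1.34% against 12.9%, and Tgtp1 took 1.64% against 8.28%. Ifi47 took 0.55% against 2.75%, and Gm4951 took 0.15% against 0.608%. In each of these genes the range over LPS day 1 libraries lay outside the range over baseline libraries. Iigp1, at 26.7% against 25.1%, and Irgm1, at 14.6% against 17.4%, had library ranges that overlapped their baseline ranges, and Igtp stood above Iigp1 in mean TPM at LPS day 1. The library values of these genes overlapped there, and in LPS day 1 replicate 3 Iigp1 (674 TPM) was above Igtp (655 TPM).

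**Figure D4:**
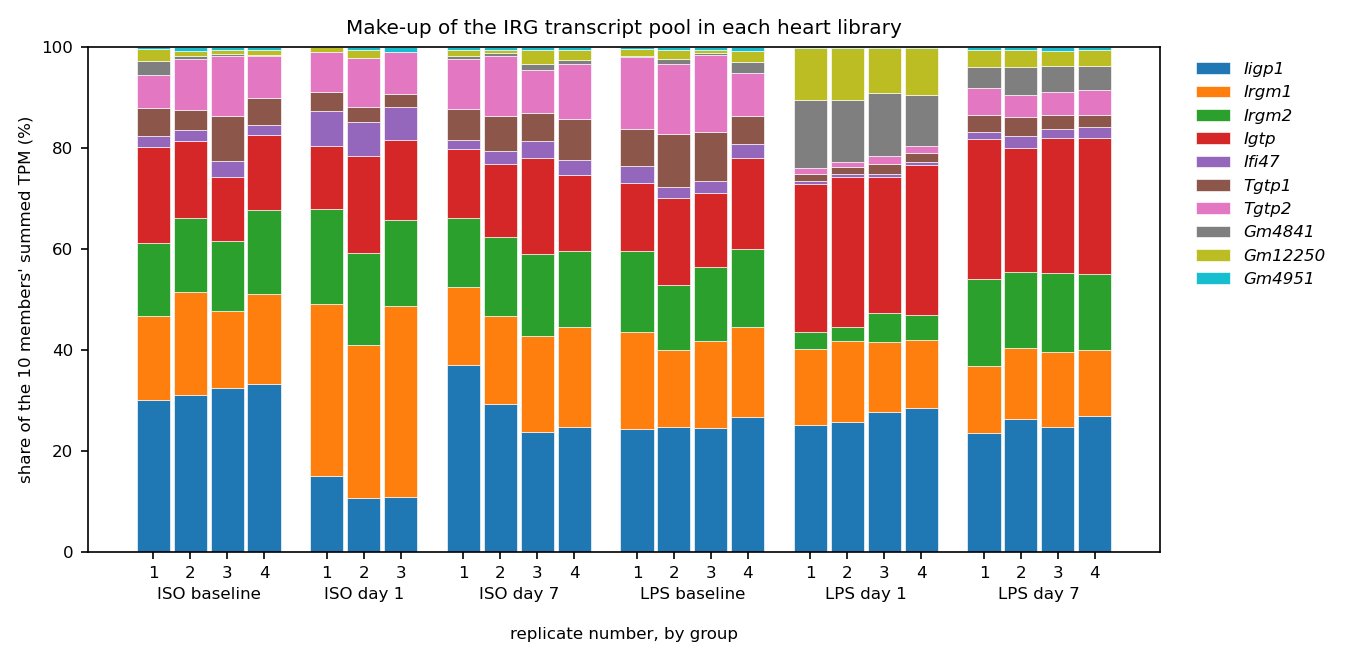
Share of each member in the summed TPM of the 10 members (%), for every library by group. Igtp, Gm4841 and Gm12250 take larger shares at LPS day 1, Tgtp1, Tgtp2, Irgm2, Ifi47 and Gm4951 smaller ones, and Irgm1 takes the largest share at ISO day 1.

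On day 7 after LPS the family was still above baseline in part. The summed TPM was 128.9 ± 26.3 at LPS day 7 against 46.2 ± 6.37 at LPS baseline (SD, n = 4 each), and it stood at 4.36% of its day 1 value. Against LPS baseline 7 members were higher, where 5.96% of all tested genes were, and the median log2 change of the 10 members was 1.33 against 0.00 over all tested genes. Against LPS day 1 all 10 members were lower, where 32.5% of all tested genes were, with a median log2 change of -4.28.

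The regulatory members all remained higher than baseline at day 7. Igtp measured 31.4, 32.6, 43.8 and 28.4 TPM at LPS day 7, against 5.08, 9.08, 7.02 and 8.24 TPM at LPS baseline (log2 change 2.02, SE 0.21, edgeR adjusted p = 2.27e-06). Irgm2 measured 19.4, 20.1, 25.9 and 16 TPM at LPS day 7, against 6, 6.78, 7.16 and 7.18 TPM at LPS baseline (log2 change 1.38, SE 0.11, edgeR adjusted p = 6.18e-08). Irgm1 measured 15.2, 18.5, 24.5 and 13.7 TPM at LPS day 7, against 7.22, 8.07, 8.3 and 8.18 TPM at LPS baseline (log2 change 0.96, SE 0.17, edgeR adjusted p = 0.00108). In all 3 genes the groups did not overlap, and LPS day 7 replicate 3 was the highest library, as it was in 9 of the 10 members.

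Among the effectors, Iigp1 and Gm12250 were higher at day 7 and the Tgtp genes were not. Iigp1 measured 26.5, 34.9, 40.4 and 28.3 TPM at LPS day 7, against 9.17, 13, 11.9 and 12.3 TPM at LPS baseline (log2 change 1.28, SE 0.17, edgeR adjusted p = 6.21e-05). Gm12250 measured 3.69, 4.59, 4.96 and 3.25 TPM at LPS day 7, against 0.521, 0.97, 0.328 and 1.01 TPM at LPS baseline (log2 change 2.33, SE 0.39, edgeR adjusted p = 0.000654). Both were clear of their baselines in every library, although Gm12250 had lost more of its day 1 level than any other member and stood at 1.42% of it.

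Tgtp1 measured 3.85, 5.17, 4.56 and 2.5 TPM at LPS day 7, against 2.8, 5.52, 4.71 and 2.53 TPM at LPS baseline, and Tgtp2 measured 6.1, 5.66, 7.39 and 5.04 TPM at LPS day 7, against 5.33, 7.28, 7.33 and 3.89 TPM at LPS baseline. The groups overlapped in both genes, with log2 changes of -0.06 (SE 0.25, edgeR adjusted p = 0.921) and -0.35 (SE 0.21, edgeR adjusted p = 0.339). The reads of both genes summed gave -0.24 (SE 0.18, edgeR adjusted p = 0.462), so the absence of a call did not rest on how reads were divided between them. Ifi47 measured 1.54, 3.03, 3.22 and 2.3 TPM at LPS day 7, against 1.26, 1.2, 1.24 and 1.31 TPM at LPS baseline, and although the groups did not overlap its log2 change of 0.78 (SE 0.26, edgeR adjusted p = 0.0648) missed the threshold. Without LPS day 7 replicate 1 it was 0.95 with an adjusted p of 0.0253.

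Gm4841 measured 4.78, 7.32, 8.47 and 5.12 TPM at LPS day 7, against 0.09, 0.515, 0.194 and 1.01 TPM at LPS baseline. All 4 treated libraries lay above the baseline, and the log2 change of 3.65 (SE 0.51, edgeR adjusted p = 0.00017) was the largest of the family at day 7. Gm4951 measured 0.73, 0.746, 1.21 and 0.714 TPM at LPS day 7, against 0.167, 0.325, 0.256 and 0.388 TPM at LPS baseline, without overlap and with a log2 change of 1.38 (SE 0.31, edgeR adjusted p = 0.00752). The share of the day 1 TPM still present at day 7 ranged over the family from 1.42% in Gm12250 to 18.8% in Gm4951, and it was 3.97% in Igtp and 16.7% in Irgm2.

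On day 1 after ISO the family moved the other way. Summed over the members, ISO day 1 hearts held 13.53 ± 2.1 TPM (SD, n = 3) and ISO baseline hearts 43.55 ± 5.12 TPM (SD, n = 4), a ratio of 0.311. In all, 9 members were lower and none was higher, where 32.8% of all tested genes were lower and 32.9% higher. The median log2 change of the members was -1.90, also with Gm4841 at its bound, against -0.01 over all tested genes.

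Iigp1 fell most among the members with reads in every library. It measured 1.92, 1.68 and 1.29 TPM at ISO day 1, against 14.6, 11.4, 15 and 14.1 TPM at ISO baseline, with a log2 change of -3.21 (SE 0.23, edgeR adjusted p = 5.17e-11). The most abundant member at baseline was thus the fourth in mean TPM at ISO day 1, and Irgm1 stood first. Irgm1 measured 4.34, 4.84 and 4.51 TPM at ISO day 1, against 8.16, 7.54, 7.12 and 7.51 TPM at ISO baseline, a smaller change of -0.77 (SE 0.20, edgeR adjusted p = 0.00174) with no overlap between the groups.

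The other regulatory members fell by amounts in between. Irgm2 measured 2.41, 2.88 and 2.04 TPM at ISO day 1, against 6.99, 5.39, 6.39 and 7.09 TPM at ISO baseline (log2 change -1.46, SE 0.14, edgeR adjusted p = 4.48e-09). Igtp measured 1.6, 3.06 and 1.88 TPM at ISO day 1, against 9.25, 5.67, 5.87 and 6.31 TPM at ISO baseline (log2 change -1.67, SE 0.27, edgeR adjusted p = 1.11e-05). Neither gene had overlapping groups, and both spread more at ISO day 1 than Irgm1 did.

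Tgtp1 measured 0.493, 0.452 and 0.308 TPM at ISO day 1, against 2.71, 1.47, 4.12 and 2.28 TPM at ISO baseline, and Tgtp2 measured 1, 1.54 and 0.984 TPM at ISO day 1, against 3.19, 3.74, 5.54 and 3.49 TPM at ISO baseline. Both fell without overlap, by 2.46 (SE 0.39, edgeR adjusted p = 7.35e-06) and 2.04 (SE 0.28, edgeR adjusted p = 1.44e-06) on the log2 scale, and their summed reads by 2.18 (SE 0.24). Ifi47 measured 0.877, 1.09 and 0.787 TPM at ISO day 1, against 1.03, 0.791, 1.47 and 0.875 TPM at ISO baseline, with overlapping groups and a log2 change of -0.29 (SE 0.33, edgeR adjusted p = 0.451). A fall of the size seen in Irgm1 lies within 2 standard errors of that value.

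The scarce members were near the limit of detection at ISO day 1. Gm4841 had 0 reads in all 3 ISO day 1 libraries, against 118 reads over the 4 ISO baseline libraries, of which 1 library alone gave most: its TPM was 1.35, 0.209, 0.122 and 0.118 at ISO baseline. Against a floor of 3 reads over the ISO day 1 group, Gm4841 was at least 30.2-fold lower, or at least 8.84-fold lower without ISO baseline replicate 1, and it passed the test (edgeR adjusted p = 0.00643). Gm12250 measured 0.128, 0.251 and 0 TPM at ISO day 1, against 1.11, 0.383, 0.422 and 0.387 TPM at ISO baseline (log2 change -2.21, SE 0.88, edgeR adjusted p = 0.0306). Leaving out 1 library ended that call in 3 cases, namely ISO baseline replicate 1 (-1.60, adjusted p = 0.146), ISO day 1 replicate 1 (-2.21, adjusted p = 0.066) and ISO day 1 replicate 3 (-1.69, adjusted p = 0.111). Gm4951 measured 0, 0.107 and 0.117 TPM at ISO day 1, against 0.229, 0.259, 0.259 and 0.266 TPM at ISO baseline (log2 change -1.75, SE 0.51, edgeR adjusted p = 0.00465), again with no overlap.

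On day 7 after ISO the family stood at its baseline level. The summed TPM was 44.36 ± 4.49 at ISO day 7 and 43.55 ± 5.12 at ISO baseline (SD, n = 4 each). None of the 10 members passed edgeR's test, where 0.00636% of all tested genes did. None had an unadjusted p under 0.05, where 5.49% of all tested genes did. Without ISO day 7 replicate 3, 0 members passed as well. The TPM ranges of the groups overlapped in all 10 genes, and log2 changes ran from -0.65 in Gm4841 (SE 0.74) to 0.26 in Gm12250 (SE 0.53). For the well-measured members the estimates were narrow, at 0.00 (SE 0.12) for Irgm2 and 0.00 (SE 0.17) for Irgm1, while Iigp1 stood at -0.17 (SE 0.17). Iigp1 measured 16.3, 13.3, 11.7 and 9.54 TPM at ISO day 7, against 14.6, 11.4, 15 and 14.1 TPM at ISO baseline. Against ISO day 1, 9 members were higher at ISO day 7, where 33.2% of all tested genes were, and Ifi47 was again the exception (log2 change 0.41, SE 0.32, edgeR adjusted p = 0.264). Gm4841, with 85 reads over the ISO day 7 group and 0 at ISO day 1, was at least 19.6-fold higher at day 7. Without ISO day 7 replicate 3 it was at least 14.9-fold higher. It lost its call without ISO day 1 replicate 2 (edgeR adjusted p = 0.0623) or ISO day 7 replicate 3 (edgeR adjusted p = 0.0512). Gm12250 lost its call without ISO day 1 replicate 3 (1.95, adjusted p = 0.0548).

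The responses to the agents were compared directly as the difference between the change after LPS and the change after ISO. At day 1 this difference was positive for all 10 members, where 18.2% of all tested genes passed in that direction. It was 9.34 (SE 0.31, edgeR adjusted p = 3.26e-16) for Iigp1, 8.61 (SE 0.36) for Igtp, 6.59 (SE 0.27) for Irgm1, 6.11 (SE 0.44) for Tgtp1, and smallest for Ifi47 at 4.00 (SE 0.41, edgeR adjusted p = 6.62e-08). The fitted value for Gm4841 rests on 0 reads at ISO day 1 and is no measure of size. At day 7 the difference passed for 4 members, where 0.362% of all tested genes passed in that direction. These were Igtp (2.06, SE 0.30, edgeR adjusted p = 0.00109), Iigp1 (1.45, SE 0.24, edgeR adjusted p = 0.00397), Irgm2 (1.38, SE 0.16, edgeR adjusted p = 8.4e-05) and Gm4841 (4.29, SE 0.93, edgeR adjusted p = 0.0391). The call for Gm4841 was lost without any of 10 single libraries, and without ISO baseline replicate 1 it was 2.53 with an adjusted p of 0.519. Irgm1, at 0.96 (SE 0.24, edgeR adjusted p = 0.0956), missed the threshold. It passed under 7 of 27 alternatives, among them leaving out ISO day 7 replicate 3 (0.99, edgeR adjusted p = 0.0482). Leaving out any other single library gave no call.

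Other IRG-type genes outside the 10 were read in the same fit. At LPS day 1, 5 of 6 tested genes were higher and none lower, beside 33.2% of all tested genes higher and 33.0% lower, and Irgc1 was not tested. F830016B08Rik averaged 543 ± 146 TPM at LPS day 1 and 3.279 ± 1.57 TPM at LPS baseline (SD, n = 4 each), a log2 change of 7.38, which placed it between Iigp1 and Irgm1 in mean TPM. Gm12185, which overlaps Tgtp1 and shares words with it, had a log2 change of 6.38, Gm5431 of 2.89 and 9930111J21Rik2 of 0.58. At ISO day 1, 4 of the 6 were lower and 1 higher (32.8% and 32.9% of all tested genes), with F830016B08Rik at -3.21. At LPS day 7, 3 of the 6 were higher (5.96% of all tested genes), with F830016B08Rik at 2.60, and at ISO day 7 none of the 6 passed.

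Genes of the interferon pathways that control IRG transcription moved as follows. Of 11 tested genes of interferon-gamma reception and signalling, 8 were higher and 1 lower at LPS day 1 (33.2% and 33.0% of all tested genes), with a median log2 change of 0.81. The interferon regulatory factors Irf8 and Irf1 rose by 2.73 and 2.72, and Irf1 averaged 82.12 ± 22.8 TPM at LPS day 1 and 13.31 ± 1.38 TPM at LPS baseline (SD, n = 4 each). Ifngr2, a chain of the interferon-gamma receptor, was lower (-1.57). Ifng itself, chosen after its values were seen, was too scarce to test, with 2 reads over the 4 LPS day 1 libraries, 9 at LPS day 7 and 1 at LPS baseline.

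At ISO day 1, 4 of these 11 genes were higher and 3 lower, shares near the 32.9% and 32.8% over all tested genes, with Irf8 at 0.58 and Ifngr2 at -1.53. At LPS day 7, 3 of 11 were higher, beside 5.96% of all tested genes, with Irf8 at 0.61, and at ISO day 7 none was called. Of 9 tested genes of type I interferon reception and signalling, 7 were higher and 2 lower at LPS day 1, beside 33.2% and 33.0% of all tested genes. The largest changes among them were in Irf7, a master regulator of type I interferon genes (5.49), Isg15, a ubiquitin-like modifier (4.94), Usp18, its deconjugating enzyme (4.33), and Stat2 (2.81). Ifnb1, a type I interferon gene also chosen after its values were seen, was too scarce to test. It had 0 reads at LPS baseline, LPS day 1 and LPS day 7. At ISO day 1, 1 of the 9 was higher and 4 were lower, beside 32.9% and 32.8% of all tested genes, with Irf7 at -0.57 and Stat2 at -0.74. At LPS day 7, 4 of the 9 were higher (5.96% of all tested genes), with Irf7 at 2.12, and none was called at ISO day 7.

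Guanylate-binding proteins (GBPs), a related family of interferon-induced GTPases that act on the same vacuoles, were also set beside the IRG genes. At LPS day 1 all 10 tested GBP genes were higher (33.2% of all tested genes), with a median log2 change of 3.77 and Gbp2 at 5.18, Gbp3 at 3.85, Gbp5 at 3.60 and Gbp7 at 3.55. At ISO day 1, 7 of 10 were lower and 1 higher (32.8% and 32.9% of all tested genes), with Gbp7 at -1.71, Gbp5 at -1.64, Gbp3 at -1.61 and Gbp2 at -0.91. At LPS day 7, 3 of 10 were higher (5.96% of all tested genes), and at ISO day 7 none was. Of 15 genes of LC3 conjugation and ubiquitin tagging, which place IRG and GBP proteins on vacuoles in mouse cells, 12 were higher and 1 lower at LPS day 1 (33.2% and 33.0% of all tested genes), with Trim21 at 2.61, Rnf213 at 2.30, Map1lc3b at 1.21 and Traf6 at 1.09. At ISO day 1, 7 of the 15 were higher and 3 lower, beside 32.9% and 32.8% of all tested genes, with Trim21 at -1.28 and Traf6 at 0.69, and none of the 15 was called at LPS day 7 or at ISO day 7.

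The genes whose pattern was most like the family's were found by the Pearson correlation of log2 CPM with the mean of the members' standardised log2 CPM over the 23 libraries. Outside the members the 6 highest were Ifit3b (0.991), Gbp3 (0.989), Rsad2 (0.989), Cxcl9 (0.988), Dtx3l (0.988) and Psmb8 (0.987). These values are descriptions over libraries that fall into treatment groups. Among the members the same measure, which here includes the gene itself in the mean, ran from 0.943 in Tgtp2 to 0.994 in Igtp.

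Markers of immune cells moved between the groups as well, and their part in the IRG values was not tested. The summed TPM of 7 T and natural killer cell markers was 0.178 to 0.222 at ISO day 1, with Ncr1 and Gzma at 0 in all 3 libraries, against 0.615 to 0.896 at ISO baseline. It was 0.818 to 1.38 at LPS day 1 and 9.92 to 14.6 at LPS day 7, against 0.545 to 0.622 at LPS baseline. The 4 neutrophil markers summed to 6.97 to 17.2 TPM at ISO day 1, against 0.17 to 0.541 at ISO baseline, where Cxcr2 was at 0, and to 14.5 to 24.7 at LPS day 1 and 1.1 to 5.79 at LPS day 7, against 0.494 to 0.762 at LPS baseline.

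The 6 macrophage and monocyte markers summed to 28.1 to 39 TPM at LPS day 1 and 116 to 146 at LPS day 7, against 54.3 to 70.8 at LPS baseline. At LPS day 1, 1 of the 6 was higher, the monocyte marker Ly6c2 (log2 change 2.91), and 3 were lower, beside 33.2% and 33.0% of all tested genes. All 6 were higher at LPS day 7, beside 5.96% of all tested genes. At ISO day 1 the 6 summed to 36 to 41.5 TPM, against 44.5 to 57.1 at ISO baseline. Of the 6, 1 was higher and 3 were lower at ISO day 1, beside 32.9% and 32.8% of all tested genes. The 5 endothelial markers summed to 217 to 292 TPM at LPS day 1, against 216 to 253 at LPS baseline, and to 260 to 291 at ISO day 1, against 195 to 231 at ISO baseline. The 4 fibroblast markers summed to 333 to 431 TPM at LPS day 1, against 225 to 264 at LPS baseline, and to 177 to 189 at ISO day 1, against 222 to 233 at ISO baseline. Dcn made up most of these sums. It was higher at LPS day 1 (0.80), while 2 of the other 3 markers were lower, beside 33.2% and 33.0% of all tested genes. The median log2 change over the 4 was -0.21. After ISO, 2 of the 4, Dcn among them (-0.42), were lower on day 1 and 1 was higher, beside 32.8% and 32.9% of all tested genes.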

How the data were processed

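Poly-A RNA of 23 mouse heart libraries was analysed from 1 file per library. Per the file headers, the authors deposited estimated counts of reads per gene, TPM and effective gene lengths in bases, the last another quantity, which entered 1 alternative as offsets. Per the submitters' processing notes, the tools were bcl2fastq, DRAGEN, edgeR and limma and the build was mm10, while tool versions, annotation release and read strand are each not given in the sources used here. Of the estimated counts, 9.5% were not whole, and they were rounded before testing. Of 55487 identifiers 55227 matched GENCODE M21, and unmatched ones held at most 0.00573% of a library's reads.

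Groups come from the labels. edgeR 4.0.16 under R 4.3.3 (TMM, a minimum count of 10, quasi-likelihood F test) was fitted to all libraries as 6 group means, giving 15732 tested genes, all 10 members among them. The p-values are two-sided, adjusted with the Benjamini-Hochberg method over all tested genes and called under 0.05, and 9 comparisons were made. Fold changes are log2 with a standard error from the F value, and the common biological coefficient of variation was 11%. The floor used for a group at 0 was 3 reads summed over that group, for counting error alone. Alternatives were other scalings, filters and fits, limma 3.58.1 on log2(TPM + 0.1) or log2(TPM + 1), DESeq2 1.42.0, a replicate block, and leaving out each library; leaving out pairs of LPS day 1 libraries was chosen after seeing the data. The procedure was tested on simulated data. Python 3.11.15 was used for levels, 31-base words and motifs.

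The members and gene lists were chosen with earlier results of these data known. Named beside the members are up to 4 genes of each list with the smallest adjusted p at LPS day 1 and the 6 genes most like the family. Protein sequences were not used here, and 1 gene of the interferon-gamma list is counted but not reported by name. Replicate numbers did not pair libraries, as deviations of same-numbered libraries in other groups correlated between -0.118 and 0.161. No libraries of a group agreed within sampling noise.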

Additional observations from a re-analysis of the deposited data

Results flagged for a closer look

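In 5 of the 50 sets of 4 libraries examined for the members, 1 library lay far from the other 3 by Dixon's criterion, where chance gives about 1 in 20. Gm4841 stood at 1.35 TPM in ISO baseline replicate 1, against 0.118 to 0.209 in the others, and Gm12250 at 1.11 TPM in the same library, against 0.383 to 0.422. Gm4841 stood at 0.578 TPM in ISO day 7 replicate 3, a library that also lay apart over all genes, against 0.223 to 0.253. Tgtp2 stood at 5.41 TPM in ISO day 7 replicate 2, against 4.19 to 4.36, and Gm4951 at 1.21 TPM in LPS day 7 replicate 3, against 0.714 to 0.746.

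The change after LPS differed from the change after ISO by edgeR's test of the difference in all 10 members at day 1. The differences, as log2 values, were 9.34 for Iigp1, 6.59 for Irgm1, 5.66 for Irgm2, 8.61 for Igtp, 4.00 for Ifi47, 6.11 for Tgtp1, 4.76 for Tgtp2, 10.94 for Gm12250 and 5.78 for Gm4951. The fitted 17.64 for Gm4841 has 0 reads at ISO day 1 behind it and is no bound. At day 7 the differences that passed were 1.45 for Iigp1, 1.38 for Irgm2, 2.06 for Igtp and 4.29 for Gm4841.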

How the results depend on the processing

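Over the alternatives run, the number of members called ranged from 6 to 9 at ISO day 1 (9 in the main analysis), 9 to 10 at LPS day 1 (10), 7 to 8 at LPS day 7 (7), 7 to 9 for ISO day 7 against ISO day 1 (9), 9 to 10 for LPS day 7 against LPS day 1 (10), 9 to 10 for the day 1 difference between the agents (10) and 3 to 6 for the day 7 difference (4), and it was 0 at ISO day 7 and between the baselines. The settings that gave 9 instead of 10 were those with Tgtp1 and Tgtp2 summed, which leave 9 genes to count. Leaving out 1 library gave 8 to 9, 10, 7 to 8, 8 to 9, 10, 10 and 3 to 5 in the same order. Of 1881 values of single members under an alternative, 22 lost and 15 gained a call, and none that was called changed sign.

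Replicate numbers did not pair the libraries, so the replicate block is only an alternative. With the block 9, 10, 7, 9, 10 and 10 members were called in that order and 3 for the day 7 difference, where Gm4841 lost its call (4.26, adjusted p = 0.0711).

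On log2(TPM + 1) with limma, which compresses scarce genes, Gm4841, Gm12250 and Gm4951 lost their calls at ISO day 1 (adjusted p = 0.124, 0.0666 and 0.124). Ifi47 at LPS day 7 passed under 7 alternatives, among them scaling by library totals (0.94, adjusted p = 0.0161) and DESeq2 (0.77, adjusted p = 0.0315). Scaling by library totals moved the median of all genes to 0.16 at LPS day 7 against LPS baseline, with 2421 genes higher and 90 lower, against 938 and 493 in the main analysis, to 0.20 for LPS day 7 against LPS day 1 (6776 higher and 3584 lower, against 5336 and 5108), and to 0.13 for the day 7 difference. Genes called at LPS day 7 numbered 621 without LPS day 7 replicate 3 and 2600 with the compared groups alone, against 1431. For the day 7 difference 40 to 320 genes were called, against 72, and between the baselines 107 to 701, against 191. Depth limits Gm4841, Gm12250 and Gm4951, whose ISO libraries held few reads.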
